A study of Equus caballus with 12 samples.

Results

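The miR-99/100 and miR-125 families were followed across the heart, lung and liver of the horse. The members were all known horse miRNAs in the table named miR-99, miR-100 or miR-125, with any letter or arm. Of 294 known miRNAs in the table, 5 met this rule: eca-miR-99a, eca-miR-99b, eca-miR-100, eca-miR-125a-5p and eca-miR-125b-5p, named below without the prefix for the horse. The table held 629 entries in all, the others being named by their sequence alone.

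Small RNA was sequenced from 4 healthy Polish cold-blooded stallions, aged 1 to 2 years, which were numbered 27, 30, 32 and 34. No treatment was stated for them. From each horse the left ventricle of the heart, the caudal lobe of the right lung and the right lobe of the liver were taken at the slaughterhouse, giving 12 libraries with 1 library per tissue and horse. The replicates of a tissue were therefore different animals, and libraries with the same number in different tissues came from the same animal. The question was which miRNAs differ in level between the 3 tissues.

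A miRNA guides the silencing machinery to messenger RNAs that pair with its seed, the short stretch near its 5′ end, and lowers their stability and translation. miR-99a, miR-99b and miR-100 form one seed family, which in human cells is known for repressing the kinase mTOR and the growth factor receptor IGF1R. miR-125a and miR-125b are the vertebrate relatives of lin-4, the first miRNA described in Caenorhabditis elegans, where it times larval development together with let-7. In vertebrates both families lie in compact clusters with let-7 miRNAs, which act broadly against proliferation and for the differentiated state.

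The same arrangement was seen in the gene order of the RefSeq annotation of the horse assembly TB-T2T, which is another assembly than the one used for mapping and served here only for names and neighbours. All 5 members had a gene there, and the genes looked up lay at 3 places. MIR100 was next to MIRLET7A, with MIR125B beyond it and 1 other gene in between. MIR99A-2 was next to MIRLET7C, with MIR125B-2 beyond it and again 1 gene in between. MIR99B, MIRLET7E and MIR125A followed each other with 0 genes between them. The miR-100 and miR-99a clusters each lay within the bounds of a gene annotated as protein-coding, while no host gene was annotated around the miR-99b cluster. miR-125b-5p can be made from both MIR125B and MIR125B-2, so its single count may join the output of 2 loci. let-7a had a further gene, MIRLET7A-2, elsewhere in the assembly. For miR-99a only MIR99A-2 was looked up, and whether it has a further copy was not checked.

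The deposited values are read counts that the authors divided by a size factor of each library, here called normalized counts. The smallest value above 0 in each library was taken as 6 reads, the study's minimum. On that basis the table held between 8113895 and 9355513 reads per heart library. The lung libraries held 3536536 to 7560746 and the liver libraries 3066869 to 8595569. The tissue labels were checked against marker miRNAs. The 6 striated muscle miRNAs made up 52.2% to 61.5% of each heart library, with at most 0.314% in lung and 0.115% in liver, and miR-208b, made from a cardiac myosin gene, was listed at 0 in all lung and liver libraries. The 4 hepatocyte miRNAs took 30.0% to 33.4% in liver and at most 5.29% in lung and 1.0% in heart, and the 6 epithelial miRNAs took 1.34% to 1.80% in lung and at most 0.139% elsewhere. The normalized total of the heart library of horse 34 was 1.53e+07, above the range of 1.02e+07 to 1.21e+07 of the other hearts, so its values are given alongside the others in what follows. In bulk tissue, fewer cells of a type and less RNA per cell cannot be told apart. Levels of different miRNAs in 1 library also carry the ligation preference of each sequence, and miR-99a and miR-100, like miR-125a and miR-125b, are close enough in sequence that reads could be split between them by the mapping; how much was not tested.

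Of the 5 members, miR-100 differed most between the tissues. Its normalized counts in heart were 463994 in horse 27, 529084 in horse 30, 533178 in horse 32 and 842627 in horse 34. In lung, in the same order of horses, they were 101449, 86675, 100305 and 56556. In liver they were 42335, 49442, 31683 and 39756. Every heart library lay above every lung library and every lung library above every liver library, so the order heart, lung, liver held in each of the 4 horses. Expressed as a mean, the level was 592221 ± 169919 normalized counts in heart, 86246 ± 20900 in lung and 40804 ± 7332 in liver (SD, n = 4). Among the known miRNAs of a library, miR-100 ranked 4 in each heart, between 12 and 18 in the lungs and between 17 and 23 in the livers.

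miR-99a, which shares its seed with miR-100, was abundant in all 3 tissues. In heart it stood at 177564, 300266, 311113 and 470174 normalized counts in horses 27, 30, 32 and 34. The lungs had 118897, 156974, 159141 and 64148. The livers had 183512, 181278, 91323 and 189518. The lowest heart library exceeded the highest lung library, whereas heart overlapped liver and liver overlapped lung. The means were 314779 ± 120000 in heart, 124790 ± 44452 in lung and 161408 ± 46853 in liver (SD, n = 4). The order of the tissue means was thus heart, liver, lung, with liver and lung as neighbours that did not differ beyond their spread, and the liver of horse 32 was the only liver under 181278.

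miR-99b, the third member of this seed family, was the least abundant of the 5. Its normalized counts in horses 27, 30, 32 and 34 were 10383, 9687, 8874 and 12622 in heart. They were 9557, 8397, 7934 and 6049 in lung and 6342, 8461, 7315 and 5650 in liver. The ranges of heart and liver did not overlap, and lung overlapped both. Its mean in heart, 10392 ± 1610 normalized counts, was 1.30 times that in lung, 7984 ± 1460, and 1.5 times that in liver, 6942 ± 1222 (SD, n = 4).

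For miR-125b-5p, the more abundant of the miR-125 pair, the hearts held 224551, 232825, 171206 and 137365 normalized counts in horses 27, 30, 32 and 34. The lungs held 166243, 84266, 57809 and 97728. The livers held 55821, 58069, 67206 and 62606. All hearts were above all livers, and the lung of horse 27 was above the heart of horse 34. The lungs were far more spread than the livers: the coefficient of variation over the 4 horses was 45.5% in lung, 23.6% in heart and 8.29% in liver, where the median over known miRNAs with a mean of at least 100 normalized counts was 32.3%, 33.4% and 23.6%. Mean levels were 191487 ± 45250 in heart, 101512 ± 46231 in lung and 60925 ± 5049 in liver (SD, n = 4).

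miR-125a-5p had similar normalized counts in the 3 tissues, although its share of the library went from 0.446% in heart over 0.838% in lung to 0.985% in liver. The heart values for horses 27, 30, 32 and 34 were 43362, 47835, 57578 and 63043 normalized counts. The lung values were 63091, 29700, 33178 and 32777, and the liver values were 47864, 49770, 48426 and 57409. The ranges of all 3 tissues overlapped, and the lung of horse 27 stood well above the other 3 lungs. The means were 52955 ± 8970 in heart, 39687 ± 15680 in lung and 50867 ± 4434 in liver (SD, n = 4), and its coefficient of variation in liver was 8.72%.

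**Figure D1:**
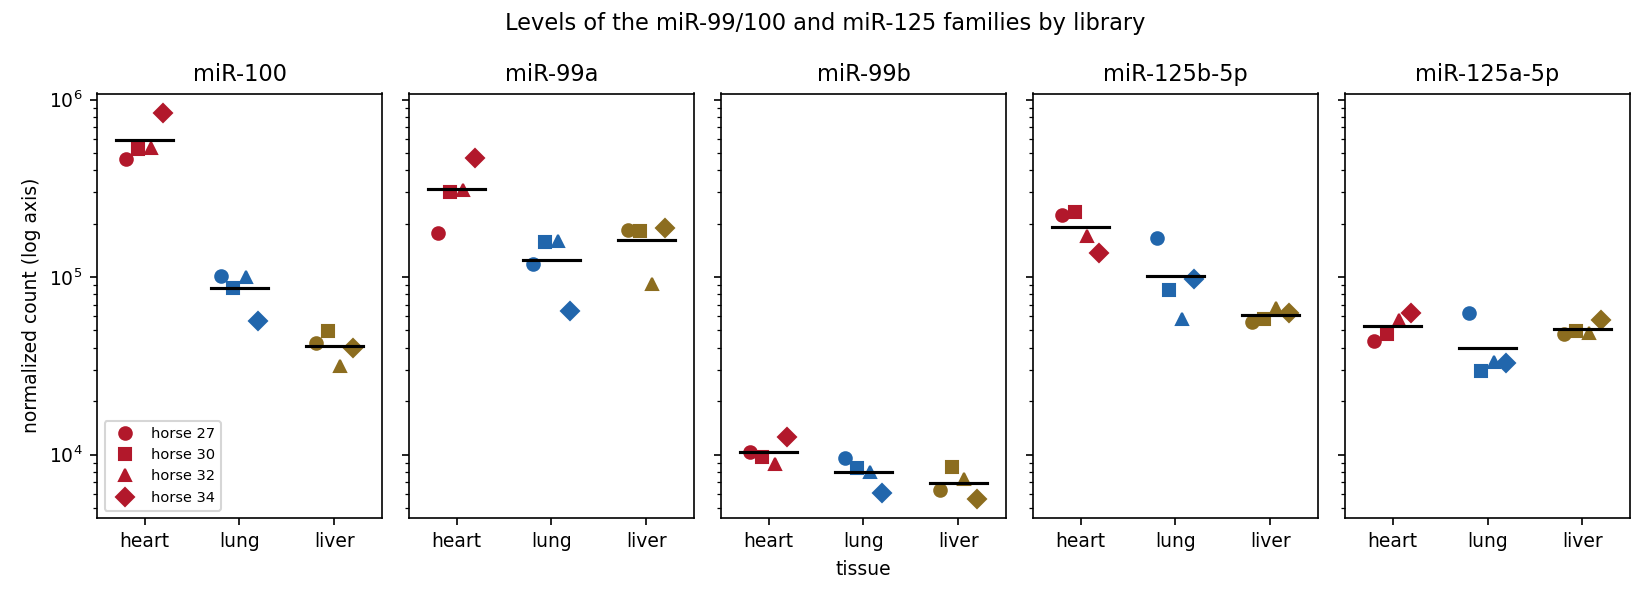
Normalized counts of miR-100, miR-99a, miR-99b, miR-125a-5p and miR-125b-5p (y axis, log scale) in heart, lung and liver (x axis), with 1 point per library, 1 marker per horse, and bars for the mean of 4 horses. The miR-100 points step down from heart (463994 to 842627) over lung to liver (31683 to 49442) with no overlap, while the miR-125a-5p points of the 3 tissues overlap.

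Horse 34 combined extremes in heart. Its heart had the highest miR-100, miR-99a, miR-99b, miR-125a-5p and let-7a of the 4 hearts and the lowest miR-125b-5p, 137365 normalized counts. The heart of horse 27 had the lowest miR-100, miR-99a and let-7a, and its miR-125b-5p, 224551, was close to the highest. As shares of the reads of each library, which do not use the deposited size factors, miR-125b-5p was again lowest in the heart of horse 34 (0.896%), with 1.64% to 2.21% in the other hearts, and miR-100, miR-99a and let-7a were again highest there. By share, however, miR-99b was highest in the heart of horse 27 (0.102%, with 0.0824% in horse 34), miR-125a-5p in that of horse 32 (0.551%, with 0.411% in horse 34), and miR-100 was lowest in that of horse 30 (4.39%). This contrast was seen after the values were known and was not tested.

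In the comparison of lung versus heart, 2 of the 5 members were downregulated in lung and 0 were upregulated. A miRNA was called when its Benjamini-Hochberg adjusted p over 256 tested known miRNAs was under 0.05 in limma and its log2 fold change was at least 1 in size. Over all tested miRNAs, 19.1% were called lower and 19.5% higher in lung, 38.7% in either direction. miR-100 was lower in lung by 2.78 on the log2 scale (log2 fold change -2.78, SE 0.25, limma adjusted p = 2.38e-06), its heart mean being 6.87 times its lung mean, and it was lower in lung in 4 of 4 horses. miR-99a had a log2 fold change of -1.34 (SE 0.37, limma adjusted p = 0.0118) and was also lower in 4 of 4 horses. The miR-99a call rested on horse 34, without which the log2 fold change was -0.83 and the limma adjusted p 0.0766. These 2 members were also those whose lung and heart libraries did not overlap, which was so for 44.5% of all tested miRNAs.

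The remaining members were not called between lung and heart. miR-125b-5p had a log2 fold change of -0.99 (SE 0.29, limma adjusted p = 0.0144) and so stopped just short of the fold minimum, with lower values in lung in 4 of 4 horses. With no fold minimum it would be a further call, beside 46.1% of all tested miRNAs. That call would be lost without horse 30 (limma adjusted p = 0.119) or horse 32 (0.0733). Without horse 27 (-1.175, limma adjusted p = 0.00743) or horse 34 (-1.155, 0.0307), miR-125b-5p passed both thresholds. miR-125a-5p gave -0.47 (SE 0.24, limma adjusted p = 0.123) and was lower in lung in 3 of 4 horses. miR-99b gave -0.39 (SE 0.20, limma adjusted p = 0.132) and was lower in 4 of 4 horses.

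The lung and heart contrast of all members but miR-100 depended on the scaling of the libraries. Scaled to the total of the library (CPM), the median of all tested miRNAs moved by 1.26 on the log2 scale towards lung, beside the 52.2% to 61.5% of heart reads that came from the striated muscle miRNAs. On that scale miR-100 was still downregulated in lung, with a log2 fold change of -1.45, whereas miR-99a was no longer called (-0.0071, limma adjusted p = 1). The others turned to higher values in lung, with log2 fold changes of 0.34 for miR-125b-5p (limma adjusted p = 0.434), 0.86 for miR-125a-5p (0.00642) and 0.94 for miR-99b (0.00209), under the fold minimum. A scaling by trimmed mean (TMM) and one computed without the 10 most abundant miRNAs, which left out miR-100 and miR-99a themselves, kept the calls of both.

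In lung versus liver, 1 of the 5 members, miR-100, was upregulated in lung and 0 were downregulated, where 25% of all tested miRNAs were called higher and 26.6% lower in lung, 51.6% in either direction and 55.1% with no fold minimum. Its log2 fold change was 1.06 (SE 0.25, limma adjusted p = 0.00313), its lung mean was 2.11 times its liver mean, and it was higher in lung in 4 of 4 horses. It was the only member without overlap between lung and liver libraries, as were 52.7% of all tested miRNAs. Because the value was so near the fold minimum, the call was lost without horse 27 (0.99) or horse 32 (0.86), without the lung of horse 27 (0.97), the lung of horse 32 (0.98) or the liver of horse 32 (0.94), and with the scaling that left out the 10 most abundant miRNAs (0.68), while the adjusted p stayed under 0.05 in that scaling (limma adjusted p = 0.00824). None of the other members was called: miR-125b-5p had a log2 fold change of 0.63 (SE 0.29, limma adjusted p = 0.0859), miR-99b 0.20 (SE 0.20, 0.440), miR-99a -0.40 (SE 0.37, 0.410) and miR-125a-5p -0.43 (SE 0.24, 0.148).

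In heart versus liver, 2 of the 5 members were upregulated in heart and 0 were downregulated, beside 19.9% called higher and 27% called lower in heart among all tested miRNAs, 46.9% in either direction and 53.5% with no fold minimum. miR-100 had a log2 fold change of 3.84 (SE 0.25, limma adjusted p = 1.04e-07), and its heart mean was 14.5 times its liver mean. miR-125b-5p had a log2 fold change of 1.62 (SE 0.29, limma adjusted p = 0.000529) and a heart mean of 3.14 times its liver mean. Both were higher in heart in 4 of 4 horses. With CPM scaling, which moved the median of all miRNAs by -1.16, miR-100 was still called (2.64) and miR-125b-5p was not (0.43, limma adjusted p = 0.303).

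The other 3 members showed smaller heart and liver differences. For miR-99b the log2 fold change was 0.59 (SE 0.20, limma adjusted p = 0.0274), under the fold minimum, with heart above liver in 4 of 4 horses. Its libraries did not overlap, which made 3 of 5 members without overlap against 52.3% of all tested miRNAs. For miR-99a it was 0.94 (SE 0.37, limma adjusted p = 0.0521), with heart above liver in 3 of 4 horses, and it passed both thresholds once horse 27 was left out (1.27, limma adjusted p = 0.0385). For miR-125a-5p it was 0.05 (SE 0.24, limma adjusted p = 0.882). With CPM scaling these 3 turned to lower values in heart: -0.61 for miR-99b, -0.26 for miR-99a and -1.15 for miR-125a-5p, the last one past both thresholds (limma adjusted p = 0.000815).

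**Figure D2:**
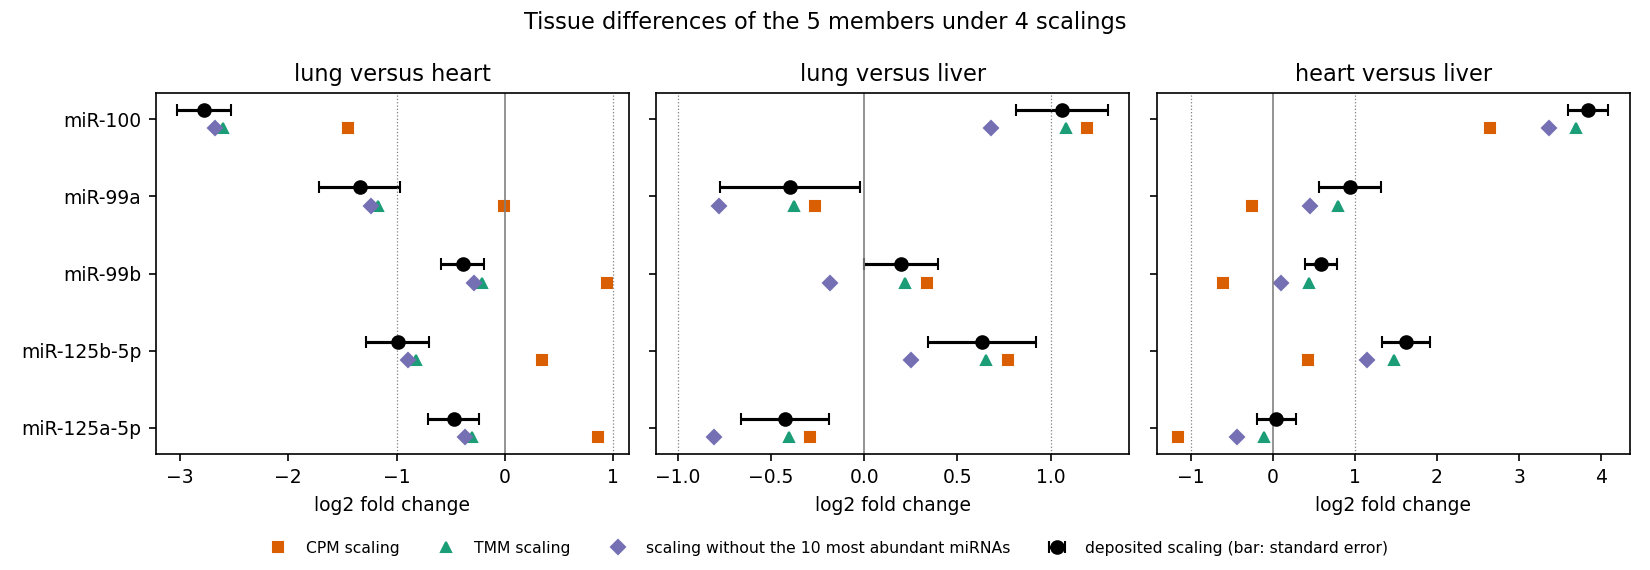
Log2 fold changes (x axis) of the 5 members (y axis) in lung versus heart, lung versus liver and heart versus liver, with black points and standard errors for the deposited scaling and other symbols for CPM, TMM and the scaling without the 10 most abundant miRNAs. Dotted lines mark the fold minimum of 1. miR-100 keeps its side of 0 under all 4 scalings (for heart versus liver 2.64 to 3.84), although CPM moves all 5 members towards lung and liver and away from heart.

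The make-up of the group changed with the tissue. The 5 members together took 9.66% ± 0.6 of the reads in heart, 7.58% ± 1.27 in lung and 6.17% ± 0.638 in liver (SD, n = 4), ranging from 9.04% to 10.3%, 6.43% to 9.24% and 5.50% to 7.0%. Within this sum, miR-100 held 50.5% on average in heart (47.3% to 55.2%), 23.9% in lung (22.0% to 28.0%) and 12.7% in liver (11.2% to 14.2%). The share of miR-100 thus separated the 3 tissues without overlap. The share of miR-99a went the other way, with 26.4% for heart (19.3% to 30.8%), 34.5% for lung (24.9% to 44.4%) and 49.4% for liver (37.1% to 54.6%), and lung overlapped both neighbours. The share of miR-125a-5p averaged 4.61% for heart, 11% for lung and 16.1% for liver, with ranges of 4.13% to 5.32%, 8.11% to 13.7% and 14.3% to 19.7% that did not overlap. These are shares of 1 sum, so a higher share of one member lowers the others.

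**Figure D3:**
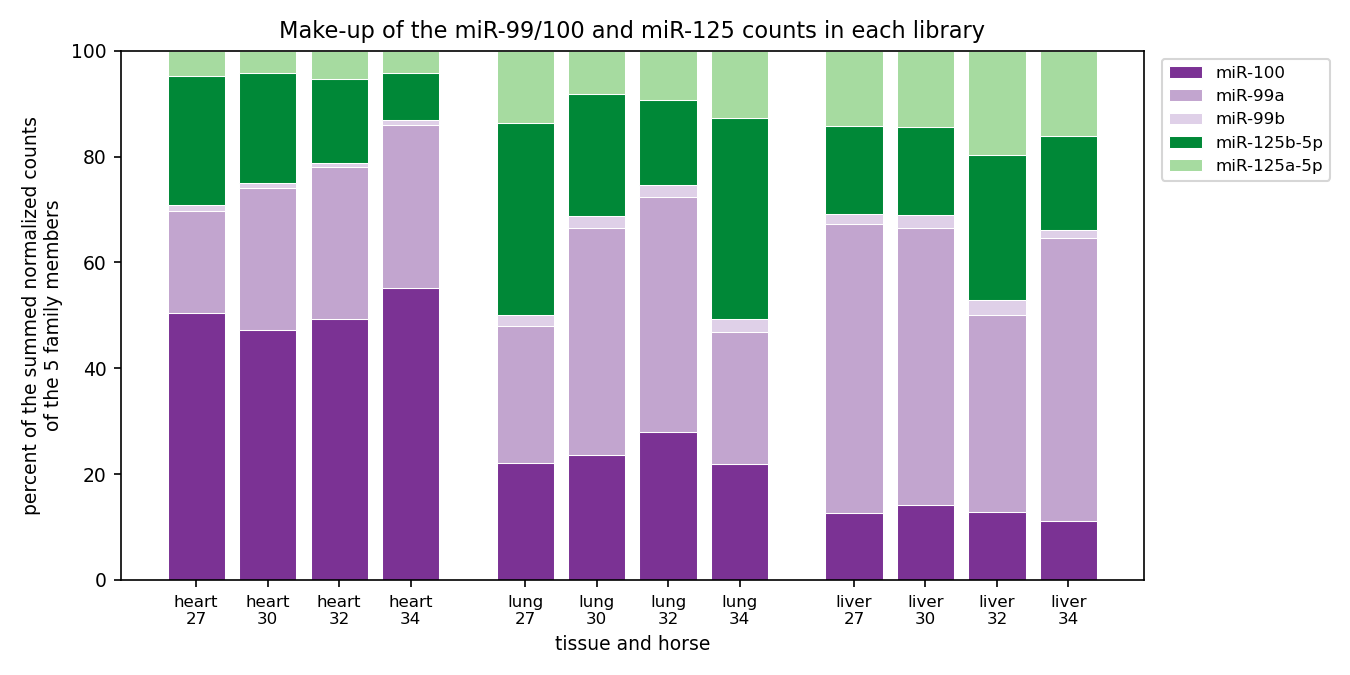
Share of each member in the summed normalized counts of the 5 members (y axis, percent) in each of the 12 libraries, ordered by tissue and horse. miR-100 fills 47.3% to 55.2% of each heart bar and 11.2% to 14.2% of each liver bar, where miR-99a is the largest part.

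Ratios within a library do not depend on the scaling. The ratio of miR-100 to miR-99a was 2.61, 1.76, 1.71 and 1.79 in the hearts of horses 27, 30, 32 and 34. It was 0.853, 0.552, 0.630 and 0.882 in the lungs and 0.231, 0.273, 0.347 and 0.210 in the livers. miR-100 outnumbered miR-99a in every heart and was outnumbered in every lung and liver. The mean log2 ratio differed by -1.44 between lung and heart, by 1.46 between lung and liver and by 2.90 between heart and liver, the last one a 7.46-fold difference, with the same direction in 4 of 4 horses each time. Each gave an exact two-sided permutation p of 0.0286, the smallest that 4 against 4 libraries allow, and an adjusted p of 0.0514 over the 9 ratio tests, which does not pass 0.05. At that smallest p, the adjusted value depended on how many of the 9 tests reached it, not on the size of the difference.

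let-7c is encoded next to MIR99A-2, so its ratio to miR-99a sets neighbours of 1 cluster against each other, unless miR-99a has a further copy. It was 0.119, 0.0703, 0.0835 and 0.0753 in the hearts of horses 27, 30, 32 and 34, 0.240, 0.187, 0.150 and 0.225 in the lungs and 0.215, 0.125, 0.261 and 0.215 in the livers. Every heart lay below every lung and liver, and lung and liver overlapped fully. The mean log2 ratio was 1.21 higher in lung than in heart and 1.21 lower in heart than in liver (difference of heart and liver -1.21), each with an exact permutation p of 0.0286 and an adjusted p of 0.0514. Lung and liver differed by 0.0031 (exact permutation p = 1). Neither difference passed 0.05 after adjustment.

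miR-125b-5p was set against the sum of miR-99a and miR-100, its 2 possible cluster partners. The ratio was 0.350, 0.281, 0.203 and 0.105 in the hearts, 0.755, 0.346, 0.223 and 0.810 in the lungs and 0.247, 0.252, 0.546 and 0.273 in the livers of horses 27, 30, 32 and 34. The tissues overlapped, and the largest difference of the mean log2 ratio was 1.12 between lung and heart (exact permutation p = 0.143, adjusted p = 0.214). Within horses this ratio was higher in lung than in heart in 4 of 4, for which the paired exact sign-flip p was 0.125, the smallest that 4 pairs allow. Between lung and liver it was 0.59 (exact permutation p = 0.257) and between heart and liver -0.54 (exact permutation p = 0.4).

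**Figure D4:**
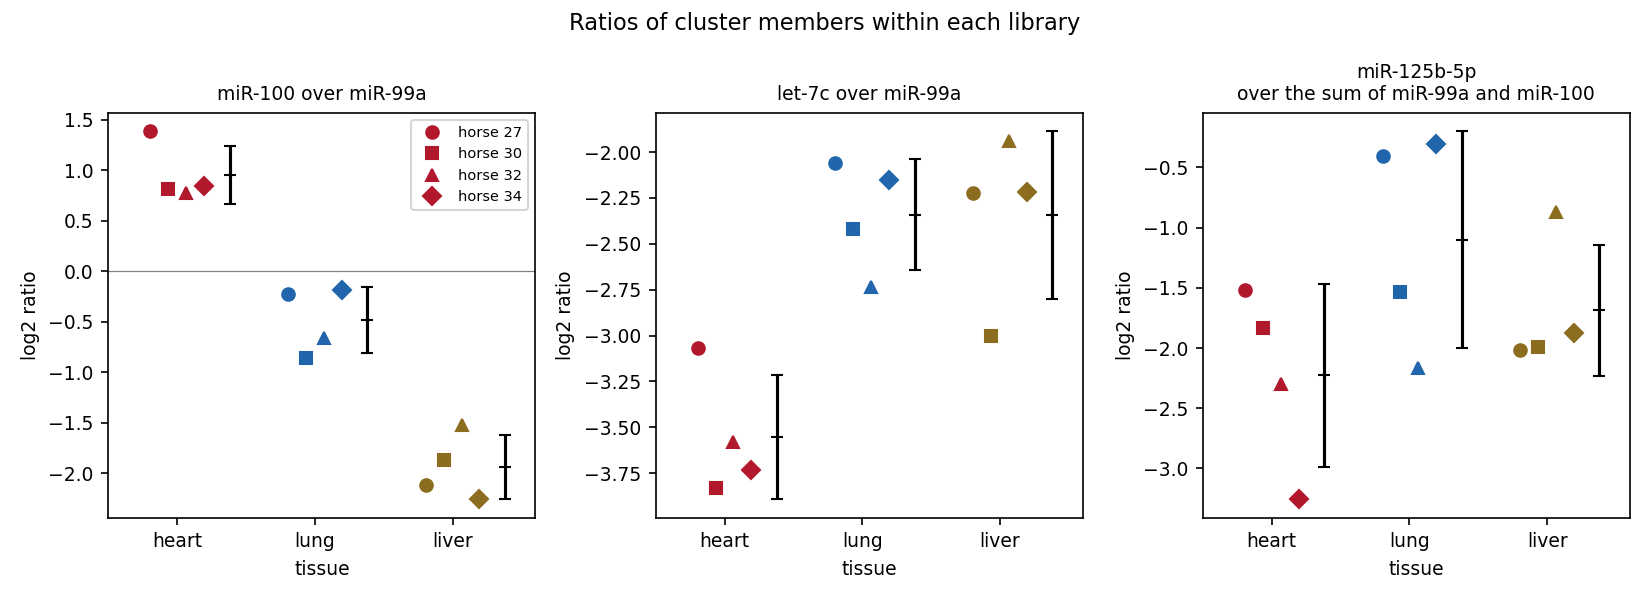
Log2 ratios within each library (y axis) of miR-100 to miR-99a, of miR-125b-5p to the sum of miR-99a and miR-100, and of let-7c to miR-99a in heart, lung and liver (x axis), with 1 point per library, 1 marker per horse, and the mean and SD of 4 horses beside them. The miR-100 to miR-99a ratios fall in 3 separate bands, from 1.71 to 2.61 in heart down to 0.210 to 0.347 in liver as linear ratios, whereas the miR-125b-5p ratios of the tissues overlap.

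Other pairs were chosen after their values were seen and are given as a description. miR-125a-5p over miR-125b-5p ran from 0.193 to 0.459 in heart, from 0.335 to 0.574 in lung and from 0.721 to 0.917 in liver. let-7a over its neighbour miR-100 ran from 0.593 to 1.11 in heart, from 6.23 to 8.75 in lung and from 10.1 to 18 in liver. In the miR-99b cluster the ratios varied less between tissues: miR-125a-5p over miR-99b ran from 4.18 to 6.49 in heart, from 3.54 to 6.60 in lung and from 5.88 to 10.2 in liver, and let-7e over miR-99b from 0.926 to 2.05, from 1.13 to 1.55 and from 1.37 to 4.15.

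The let-7 partners themselves did not follow miR-100. let-7a, one of the most abundant miRNAs of all 3 tissues, averaged 526974 ± 286085 normalized counts in heart, 662152 ± 184129 in lung and 590072 ± 118898 in liver (SD, n = 4), with overlapping ranges. let-7c averaged 25922 ± 6706, 24049 ± 6855 and 31639 ± 9754, and let-7e 16129 ± 6558, 11021 ± 3017 and 16898 ± 5021 in the same order. Of the 9 listed let-7 family miRNAs, 7 were in the table, and limma called 0 of them in each comparison, beside 38.7% of all tested miRNAs between lung and heart, 51.6% between lung and liver and 46.9% between heart and liver. At an unadjusted p under 0.05 the count was 1 for heart versus liver and 0 for the other comparisons. The median log2 fold changes of the 7 were -0.06 for lung versus heart, -0.28 for lung versus liver and -0.27 for heart versus liver, beside 0, 0.08 and -0.23 over all tested miRNAs. With CPM scaling 5 of the 7 were called higher in lung than in heart and all 7 lower in heart than in liver, where CPM called 119 and 137 of all 256 tested miRNAs in these directions. Across the 8 names of the 3 clusters, let-7a, let-7c and let-7e included, 2 were lower in lung than in heart, 1 was higher in lung than in liver and 2 were higher in heart than in liver, all of them members already named. The shares over all tested miRNAs in these directions were 19.1%, 25% and 19.9%.

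miR-10a and miR-10b, encoded in the HOX gene clusters and related in sequence to the miR-99/100 family, had opposite tissue orders. miR-10a averaged 5343 ± 4000 normalized counts in heart, 36819 ± 11430 in lung and 48429 ± 10737 in liver (SD, n = 4), and its log2 fold change was 3.01 in lung versus heart (limma adjusted p = 0.000221) and -3.43 in heart versus liver (limma adjusted p = 4.88e-05). miR-10b averaged 13575 ± 4229, 2679 ± 1523 and 1907 ± 2208, with log2 fold changes of -2.48 (limma adjusted p = 0.0151) and 3.54 (limma adjusted p = 0.00152). The miR-10b call in lung versus heart was lost with CPM scaling (-1.15, limma adjusted p = 0.177), without horse 30 (limma adjusted p = 0.0583) and without horse 32 (0.058). Neither miR-10 was called between lung and liver, where miR-10b had a log2 fold change of 1.05 (limma adjusted p = 0.257). That value rested on the liver of horse 34, which held 5113 normalized counts of miR-10b where the other livers held 368 to 1616: without this library it was 1.78 (limma adjusted p = 0.0257) and without horse 34 altogether 2.17 (limma adjusted p = 0.00959), both past the thresholds. Of the 5 miRNAs of this wider family, 4 were called between lung and heart, 1 between lung and liver and 3 between heart and liver, where 38.7%, 51.6% and 46.9% of all tested miRNAs were called.

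The miRNAs whose levels were most like those of each member were found from the root mean square difference of the log2 values over the 12 libraries, after each miRNA was centred on its own mean, among 177 candidates. miR-504 was nearest to miR-100, at 0.37 against a median of 2.03 over the candidates, with means of 2054, 203.9 and 121.5 normalized counts in heart, lung and liver. miR-342-5p (0.58) and miR-328 (0.76) came next. For miR-125b-5p the nearest were miR-652 (0.34), miR-30c (0.45) and miR-214 (0.48), against a median of 1.27. For miR-99a they were miR-676 (0.46), let-7f (0.52) and miR-149 (0.52), against 1.28.

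For miR-125a-5p the nearest were miR-185 (0.33), miR-92a (0.35) and let-7d (0.36), against a median of 1.10. For miR-99b they were miR-197 (0.27), miR-423-5p (0.32) and miR-676 (0.33), against 1.08. Among the members, miR-125a-5p and miR-99b of 1 cluster were 0.40 apart, and miR-99a and miR-125b-5p, which can share a cluster, 0.86. miR-99b was closer than that to members of other clusters, at 0.60 from miR-125b-5p and 0.61 from miR-99a. miR-100 was 1.21 from miR-99a and 1.10 from miR-125b-5p. The libraries shared by all of these values were the same 12, so the distances are a description.

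Cell types other than the main one of each organ are also part of these tissues. The 5 smooth muscle and mesenchymal miRNAs of 7 listed summed to 457185 to 545152 normalized counts over the hearts, 324185 to 455996 over the lungs and 219664 to 396244 over the livers. The lowest heart and the highest lung sum were thus close, and as a share of the library the order of these tissues was the other way, with 3.05% to 5.21% over the hearts and 7.26% to 8.98% over the lungs. Of the 5, 0 were called between lung and heart, beside 38.7% of all tested miRNAs. Against liver, 1 of the 5, miR-143, was called higher in heart and also higher in lung. The shares over all tested miRNAs in these directions were 19.9% and 25%. The 3 endothelial miRNAs summed to 144408 to 553620 over the hearts, 336150 to 681325 over the lungs and 114762 to 181135 over the livers. This sum was mostly miR-126-5p. By share, hearts (1.42% to 3.61%) and livers (2.56% to 3.19%) overlapped. Between heart and liver, miR-221 and miR-222 were called lower in heart and 0 of the 3 higher, beside 27% and 19.9% of all tested miRNAs. The 5 leukocyte miRNAs of 8 listed summed to at most 13414 in heart, 89300 in lung and 21814 in liver. Of these, miR-150 and miR-342-5p were called higher in heart than in liver and miR-146a lower, beside 19.9% and 27% of all tested miRNAs. In lung versus heart, 3 of the 5 were called higher and 1 lower, beside 19.5% and 19.1%. In lung versus liver, 4 were called higher and 0 lower, beside 25% and 26.6%. miR-342-5p averaged 3426 normalized counts in heart, 1010 in lung and 271 in liver. The part of these cell types in the levels of the members was not tested.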

How the data were processed

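Small RNA libraries (NEBNext kit) were sequenced on an Illumina instrument. By the methods of the paper, reads were checked with FastQC 0.12.1, trimmed with Trim Galore 0.6.7 and kept at lengths of 18 to 25 nt. miRNAs of miRBase 22.1 were counted with sRNAbench on EquCab3.0 at a minimum of 6 reads. The submitters' processing record names Trimmomatic and BWA instead, and this difference was not resolved. The deposited values, a signal made by the authors by dividing counts by DESeq2 size factors, were used as given. Columns of the authors' own comparisons (fold changes, p-values) were not used. Reads per library were recovered by taking the lowest value above 0 as 6 reads, which left all values whole within 0.01 of a read. A count model was not run.

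A known miRNA entered the test if 4 or more libraries held 10 or more normalized counts of it. The model was fitted to log2(value + 1) with limma 3.58.1 (R 4.3.3, trend), all 12 libraries in 1 fit with a mean per tissue and Benjamini-Hochberg adjustment. Fold changes are on that scale. Ratios of members were compared by exact two-sided permutation tests (scipy 1.17.1). The fit was tested on simulated data, with 100 of 256 miRNAs changed in each of 20 simulations per comparison. Log2 changes of 1.5 were recovered in 65% to 67% of cases and changes of 3 in 86.1% to 87%. Of the unchanged miRNAs, 0.962% to 1.22% were called. A real change of 1.5 could thus be missed. Named miRNAs were the 5 members, let-7a, let-7c, let-7e, miR-10a, miR-10b and, for each member, the 3 miRNAs nearest in level with a mean of at least 100 normalized counts. The members and lists were chosen with earlier results of these data known. Alternatives covered the scaling, the pseudocount, the filter, the fold minimum, entries named by sequence, each library and horse left out, and a replicate block for the horse. The block rests on the animal number in the titles: same-horse libraries of different tissues correlated in their deviations from the tissue means by -0.27 to 0.151 (median -0.057, 12 pairs). Libraries of different horses and different tissues correlated by -0.273 to 0.36 (median 0.028, 36 pairs), so same-horse libraries were not more alike by this measure. Mature sequences were not used here.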

Additional observations from a re-analysis of the deposited data

Results flagged for a closer look

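Of 39 groups of 4 libraries checked for a single library far from the rest, 4 exceeded Dixon's 95% critical value, and chance flags about 1 group in 20. The lung of horse 27 was highest for miR-125a-5p, at 63091 normalized counts, with a gap to the next lung of 0.896 of the range. The liver of horse 32 was lowest for miR-99a, at 91323 normalized counts (0.916 of the range). The same liver was highest for the log2 ratio of miR-125b-5p to the sum of miR-99a and miR-100, at -0.87 (0.874 of the range). The heart of horse 27 was highest for the log2 ratio of miR-100 to miR-99a, at 1.39 (0.894 of the range).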

How the results depend on the processing

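miR-100 kept its call in lung versus heart and in heart versus liver under every setting tried, with log2 fold changes of -2.97 to -2.40 and 3.65 to 3.98 when a library or horse was left out. With CPM scaling, 119 miRNAs were called higher and 16 lower in lung versus heart, and 26 higher and 137 lower in heart versus liver, against 50, 49, 51 and 69. CPM also gave, in lung versus heart, miR-99a -0.0071, miR-125b-5p 0.34, miR-125a-5p 0.86, miR-99b 0.94, let-7c 1.20 and let-7e 0.83, and in heart versus liver miR-125b-5p 0.43, miR-99a -0.26, miR-99b -0.61 and miR-125a-5p -1.15. TMM moved the median of all miRNAs by 0.11, 0.02 and -0.15 (lung versus heart, lung versus liver, heart versus liver) and turned miR-125a-5p in heart versus liver to -0.10 and let-7c in lung versus heart to 0.044. Scaling without the 10 most abundant miRNAs moved it by 0.05, -0.33 and -0.44 and gave miR-100 0.68, miR-99b -0.18 and let-7a -0.24 in lung versus liver and miR-125a-5p -0.43 in heart versus liver. With no fold minimum, miR-125b-5p in lung versus heart (-0.99) and miR-99b in heart versus liver (0.59) were called.

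Leaving out a library or horse gave, in lung versus heart, -1.59 to -0.83 for miR-99a, -1.26 to -0.75 for miR-125b-5p and -0.33 to 0.26 for let-7c, in lung versus liver 0.86 to 1.25 for miR-100 and -0.011 to 0.43 for let-7a, and in heart versus liver 0.66 to 1.27 for miR-99a, -0.043 to 0.14 for miR-125a-5p, -0.61 to 0.042 for let-7a and -0.34 to 0.14 for let-7e. The count lower in heart than in liver ran from 44, without horse 30, to 73 (45 without horse 32). The replicate block changed no call of a member (miR-100 in lung versus heart -2.78, limma adjusted p = 0.000101), and the paired sign-flip test of the ratios cannot go below an exact p of 0.125. The smallest lung and liver libraries held 3536536 and 3066869 reads in the table, and no member was near the 6-read floor. The cause of these changes was not tested.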
